A study of Mus musculus with 39 samples.

Results

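The effect of adding Activin A to Wnt3a was examined at day 3 of the differentiation of mouse embryonic stem cells (ESCs) towards definitive endoderm (DE). Of the 39 miRNA arrays of the series, 6 were compared, 3 from cells given both factors (Activin A at 100 ng/ml and Wnt3a at 50 ng/ml) and 3 from cells given the same dose of Wnt3a by itself, and each array was assigned by the label of its scanner file. The other arrays of day 3 were 3 from cells given Activin A at that dose and 3 controls given the medium without growth factors. The cells of all groups were TCL-1 mouse ESCs, which are 1 cell line. They had been kept on feeders of mitomycin C-treated mouse embryonic fibroblasts with LIF, and were freed of feeders on gelatin. They were then seeded on collagen and given RPMI 1640 with B27 and a sodium salt, which the controls received too. The study's main methods name this salt sodium butyrate, an inhibitor of histone deacetylases. Its over-expression protocol prints "sodium byruate" for the same medium, so which compound was used is not settled.

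Activin A is a ligand of the TGF-β superfamily that signals through Smad proteins, as Nodal does in the embryo, where Nodal signalling specifies mesendoderm and then endoderm. Wnt3a stabilises β-catenin and acts with Nodal in the primitive streak. MiRNAs are short RNAs that pair with messenger RNAs mainly through their seed, bases 2 to 8 from the 5′ end, and lower the output of these targets, so that miRNAs with the same seed share many predicted targets. Those known from ESCs and early lineages include the miR-290-295 cluster of pluripotent mouse ESCs, the miR-302 and miR-367 cluster of the epiblast and its first derivatives, the miR-200 family of epithelial cells, and miR-124, miR-9 and miR-219 of neural cells.

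The mature sequences of the miRNAs on which the results turn are given first, with members of a family or cluster set together. They are taken from RefSeq (GRCm38.p6), in which 36 of 39 names looked up had an entry, with the seed in capitals. MiR-302a-3p, miR-23b-3p and miR-124-3p are named only. The miR-302 and miR-367 cluster lies on chromosome 3 and the miR-290-295 cluster on chromosome 7, and members of both carry the seed AAGUGCU.
miR-302b-3p: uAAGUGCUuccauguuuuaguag, chr3:127545275-127545297, plus strand
miR-302d-3p: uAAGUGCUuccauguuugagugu, chr3:127545665-127545687, plus strand
miR-302c-3p: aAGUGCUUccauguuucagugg, chr3:127545406-127545427, plus strand
miR-302a-5p (miR-302a* on the array): aCUUAAACgugguuguacuugc, chr3:127545501-127545522, plus strand
miR-291a-3p: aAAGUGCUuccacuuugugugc, chr7:3218968-3218989, plus strand

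The miR-200 family is made from a cluster on chromosome 4 and another on chromosome 6, and its members fall under 2 seeds, AAUACUG and AACACUG, each with members from both clusters.
miR-200b-3p: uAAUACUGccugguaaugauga, chr4:156055685-156055706, minus strand
miR-429-3p: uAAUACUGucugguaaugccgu, chr4:156053916-156053937, minus strand
miR-200c-3p: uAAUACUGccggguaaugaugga, chr6:124718324-124718346, minus strand
miR-200a-3p: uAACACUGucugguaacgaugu, chr4:156054911-156054932, minus strand
miR-141-3p: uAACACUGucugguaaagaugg, chr6:124717917-124717938, minus strand

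The miR-23/27/24 group also comes from 2 clusters, on chromosomes 8 and 13, and miR-24-3p is made from both. MiR-222 and miR-221 share a seed and lie side by side on the X chromosome.
miR-23a-3p: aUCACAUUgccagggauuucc, chr8:84208563-84208583, plus strand
miR-27a-3p: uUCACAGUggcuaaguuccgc, chr8:84208727-84208747, plus strand
miR-27b-3p: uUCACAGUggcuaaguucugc, chr13:63300760-63300780, plus strand
miR-222-3p: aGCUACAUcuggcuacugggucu, chrX:19146901-19146923, minus strand
miR-221-3p: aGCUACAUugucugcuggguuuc, chrX:19146307-19146329, minus strand

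The next pairs are shown because miRNAs with the same seed were called in opposite directions, miR-181c and miR-125a-5p higher and miR-181b and miR-125b-5p lower. MiR-181b-5p is also made from a second gene on chromosome 2, and miR-125b-5p from a second gene on chromosome 9. Let-7e lies beside miR-125a on chromosome 17.
miR-181c-5p: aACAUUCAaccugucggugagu, chr8:84178924-84178945, minus strand
miR-181b-5p: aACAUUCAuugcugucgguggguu, chr1:137966650-137966673, plus strand
let-7e-5p: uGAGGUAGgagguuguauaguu, chr17:17830366-17830387, plus strand
miR-125a-5p: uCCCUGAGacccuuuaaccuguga, chr17:17830817-17830840, plus strand
miR-125b-5p: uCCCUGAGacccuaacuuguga, chr16:77646279-77646300, plus strand

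The last set holds further miRNAs that were lower with Activin A plus Wnt3a, among them pairs of close sequence or shared locus. MiR-219 (miR-219a-5p in RefSeq) is also made from a second gene on chromosome 2.
miR-219a-5p: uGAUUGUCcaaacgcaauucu, chr17:34025052-34025072, minus strand
miR-10a-5p: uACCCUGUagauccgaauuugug, chr11:96317186-96317208, plus strand
miR-10b-5p: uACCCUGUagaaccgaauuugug, chr2:74726074-74726096, plus strand
miR-99a-5p: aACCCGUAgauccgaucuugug, chr16:77598940-77598961, plus strand
miR-100-5p: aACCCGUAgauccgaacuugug, chr9:41531437-41531458, plus strand
miR-322-5p: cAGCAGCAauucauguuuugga, chrX:53054306-53054327, minus strand
miR-503-5p: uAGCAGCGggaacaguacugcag, chrX:53054027-53054049, minus strand
miR-335-5p: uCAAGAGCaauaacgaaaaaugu, chr6:30741314-30741336, plus strand

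Some probes measure near-identical targets. MiR-27a and miR-27b differ at 1 of 21 positions, miR-10a and miR-10b at 1 of 23, miR-99a and miR-100 at 1 of 22, and miR-200a and miR-141 at 2 of 22. How much signal such pairs share was not tested.

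The array held 611 mouse miRNAs. Signals are given as log2 of the quantile-normalized total signal with a floor of 2, so that an undetected miRNA stands at 1 and equal ranks on different arrays get equal values. Between 280 and 312 miRNAs were detected on the Activin A plus Wnt3a arrays and 292 to 303 on the Wnt3a arrays, the median local background was 35 to 36 and 38 to 39.5 intensity units, and 0 spots were saturated. Across miRNAs, arrays of the same group differed by 0.18 to 0.30 (root mean square log2 difference) and arrays of different groups by 0.64 to 0.69.

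The 3 Activin A plus Wnt3a arrays lay on a slide that held no other array of day 3, beside 5 arrays of day 5 (2 of Activin A and 3 of control), and it was scanned in another session than the slide with the Wnt3a arrays, the Activin A arrays and 2 of 3 controls of day 3, so treatment and slide cannot be told apart in the 6 arrays. Values from comparisons made within 1 slide are therefore given beside the results. In the deposited matrix of normalized values, the columns named Activin A and Activin A plus Wnt3a hold the rank order of each other's scanner files, which touches 18 of its 39 columns, and the scanner files' labels were followed here. If the names in the matrix were the right ones, the comparison would be that of the Activin A arrays with the Wnt3a arrays, which gave 32 miRNAs higher (10.4%) and 24 lower (7.79%) of 308 tested (18.2% in all), against 32 and 27 as labelled.

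Of 318 miRNAs tested, 59 (18.6%) were called, with an adjusted p under 0.05 in limma and a difference of more than 2-fold: 32 (10.1%) were higher with Activin A plus Wnt3a and 27 (8.49%) were lower. Without the fold limit, 75 (23.6%) were higher and 89 (28%) lower. The median difference over all miRNAs tested was -0.01. Of the 32 higher miRNAs, 22 were detected on all 6 arrays and 7 were undetected on every Wnt3a array. Of the 27 lower miRNAs, 12 were detected on all 6 arrays, 8 were undetected on every Activin A plus Wnt3a array, and 7 were detected on only 1 or 2 of those arrays. A miRNA undetected on every array of 1 group was tested only through its detection in the other, which fixed the direction of its difference. The values of the groups did not overlap for 56 of the 59, against 63.2% of all miRNAs tested, and the exceptions were miR-24-2*, miR-328 and miR-199b*. Of the 59, 25 were undetected on at least 1 of the 6 arrays, and 19 of these lost their calls when log2 signals were quantile normalized, as did 19 with a floor of 8. They include miR-181c, miR-489, miR-302b*, miR-302c*, miR-338-5p, miR-99a, miR-124*, miR-153 and miR-92a*, whereas miR-222, miR-219, miR-10a, miR-100, miR-503 and miR-181b kept theirs in both. In these bulk samples, fewer cells of a type and less RNA per cell cannot be told apart.

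**Figure D1:**
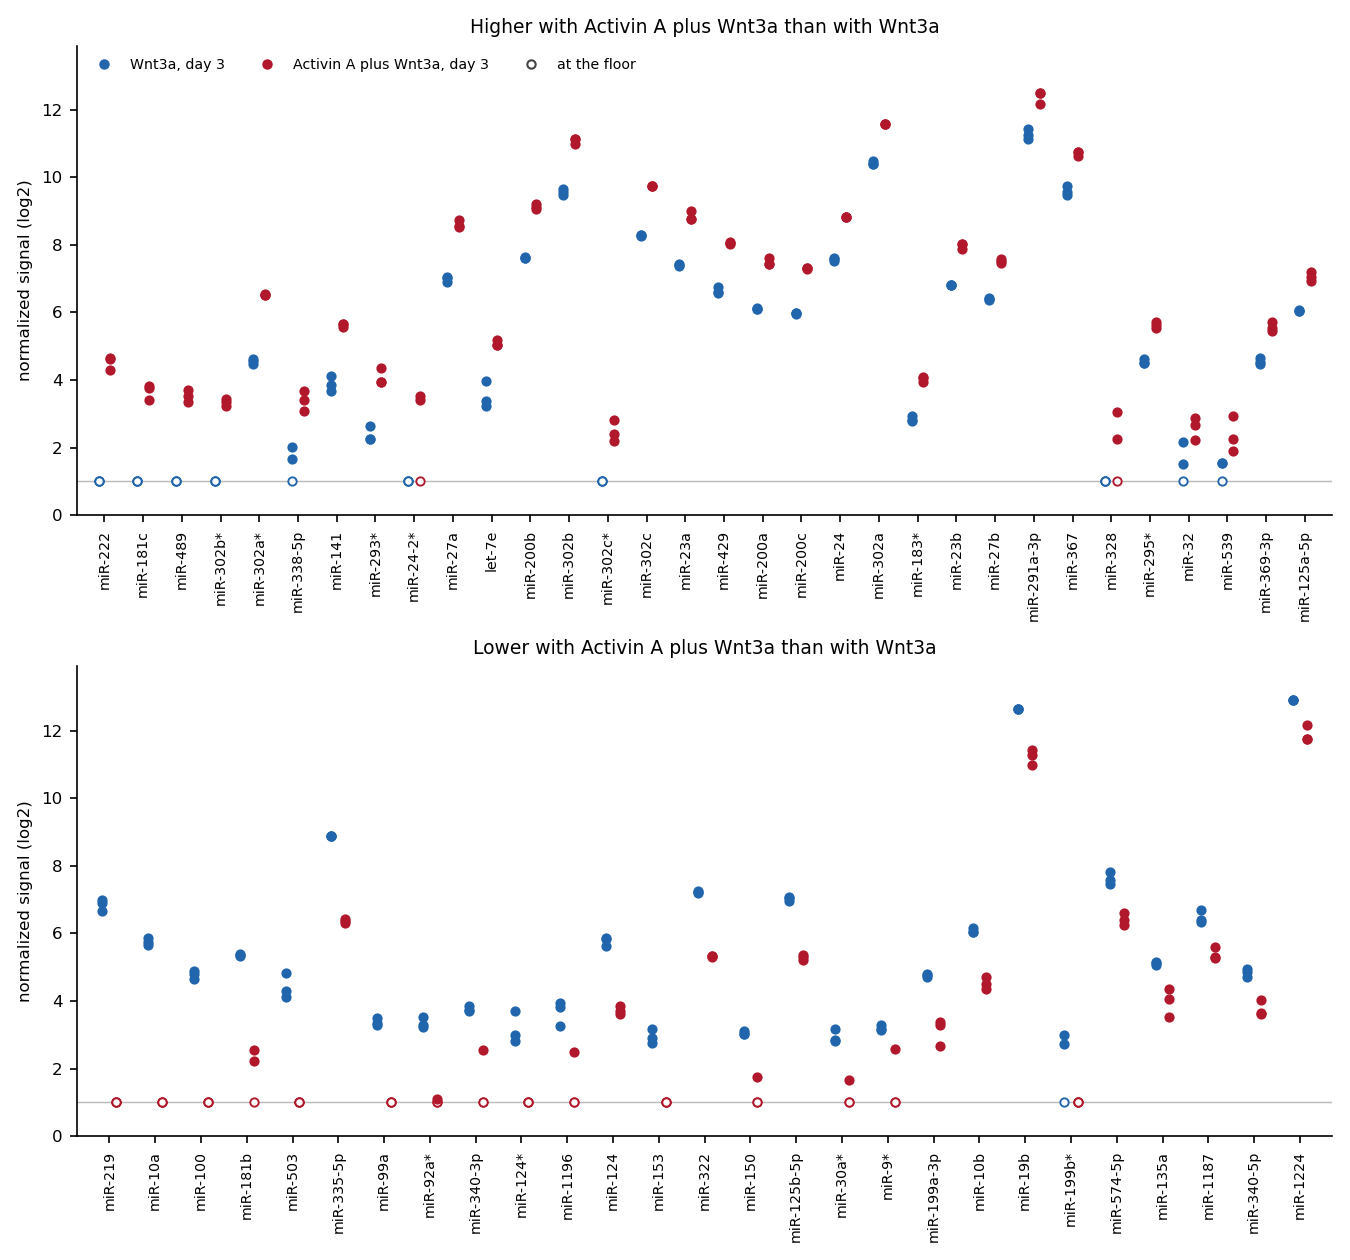
Normalized signal (log2) of each called miRNA on the 3 Wnt3a arrays (blue) and the 3 Activin A plus Wnt3a arrays (red) of day 3, ordered by the fitted difference, with the 32 higher miRNAs above and the 27 lower below. Open circles mark values at the floor, where the signal was undetected or under 2, and the groups overlap only for miR-24-2*, miR-328 and miR-199b*.

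**Figure D2:**
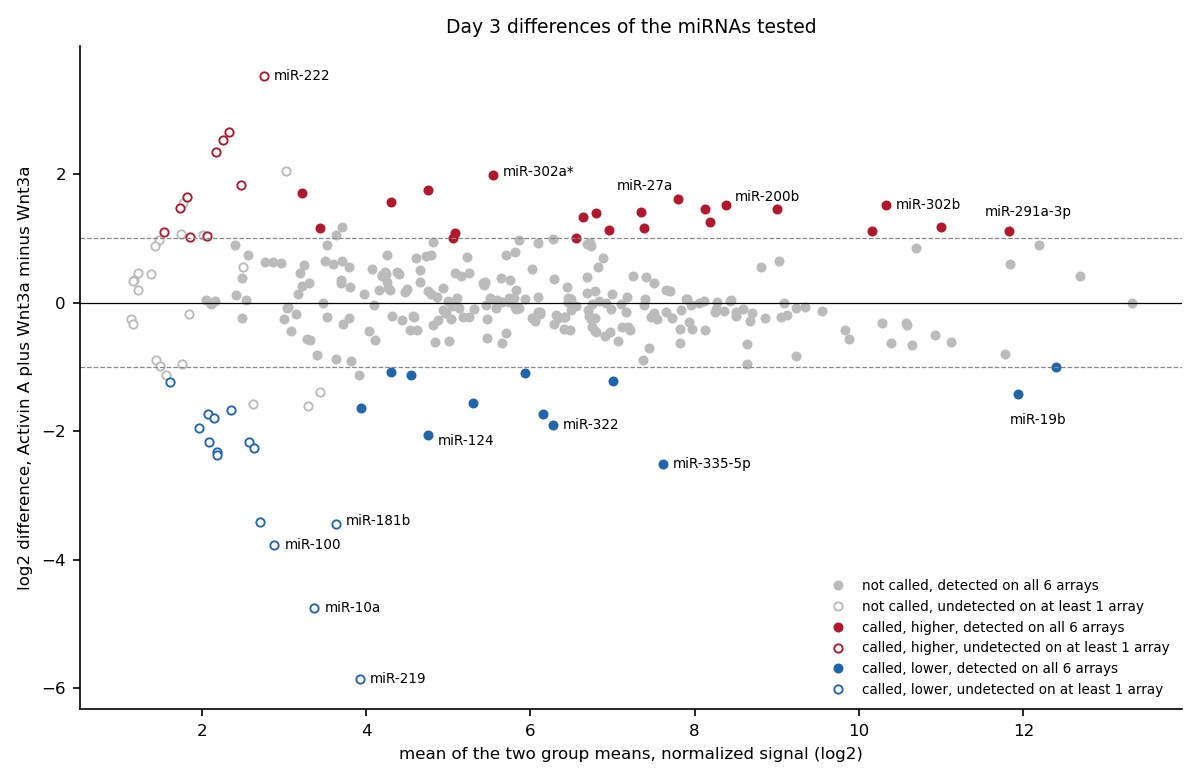
Fitted log2 difference (Activin A plus Wnt3a minus Wnt3a) of the 318 miRNAs tested, against the mean of both group means (normalized signal, log2). Dashed lines mark 2-fold, and open symbols are miRNAs undetected on at least 1 of the 6 arrays, whose fitted difference depends on the floor, such as miR-219 and miR-10a.

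The miR-302 and miR-367 cluster was higher almost as a whole. Of its 6 members detected on all 6 arrays, 5 were called higher (10.1% of all miRNAs tested) and 0 lower. Their median difference was 1.32, against -0.01 over all miRNAs tested. The other 2 of its 8 members, miR-302b* and miR-302c*, were called higher too. They were tested only because they were detected with both factors, so the detection filter fixed their direction. MiR-302c, a mature product of the cluster, gave 9.74 on each Activin A plus Wnt3a array and 8.29, 8.26 and 8.29 with Wnt3a, a difference of 1.46 (SE 0.04, adjusted p = 2.86e-09). MiR-302b, which carries the AAGUGCU seed shown above, gave 11.13, 11.13 and 10.98 with both factors and 9.57, 9.65 and 9.49 with Wnt3a, higher by 1.51 (SE 0.07, adjusted p = 8.63e-08). All 3 arrays with both factors lay above all 3 with Wnt3a for each of these miRNAs.

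Opposite strands of the same hairpins were higher too, of which only miR-302a* was detected on all arrays of both groups. MiR-302a* gave 6.52, 6.56 and 6.53 with both factors against 4.57, 4.62 and 4.48, a difference of 1.98 (SE 0.06, adjusted p = 6.3e-09). MiR-302b* was detected on all 3 arrays with both factors, at 3.45, 3.34 and 3.23, and on 0 of 3 with Wnt3a, which makes it at least 3.48-fold higher (adjusted p = 0.000295). MiR-302c* was likewise detected only with both factors and was at least 1.91-fold higher. Here and below, "at least" gives the mean of the detected group over the lowest signal flagged as detected, for any miRNA, on each array of the undetected group. A given miRNA may go undetected above that signal, so these folds are approximate bounds. The remaining member, miR-302d, was 0.85 higher (adjusted p = 2.31e-05), under 2-fold.

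The pluripotency-associated miR-290-295 cluster shifted less. Of 13 members tested, 11 were higher at an adjusted p under 0.05 (23.6% of all miRNAs tested) but 3 passed 2-fold (10.1%), with a median difference of 0.90. MiR-291a-3p, with the same seed as miR-302b, gave 12.18, 12.48 and 12.48 with both factors and 11.43, 11.27 and 11.13 with Wnt3a (difference 1.11, SE 0.11, adjusted p = 2.43e-05), and its call was lost when arrays were scaled to the 75th percentile. MiR-293*, a minor strand, gave 4.35, 3.93 and 3.95 against 2.25, 2.63 and 2.25 (difference 1.70, SE 0.15). MiR-294 stood at 13.32 on all 6 arrays, and as quantile normalization fixes the value of a rank, a change in a miRNA that holds its rank is not visible on this scale.

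All 5 members of the miR-200 family that could be tested were called higher, against 10.1% of all miRNAs tested. They are known to hold epithelial cells in that state by targeting the repressors Zeb1 and Zeb2. The median difference was 1.40, and the summed signal of the family, on the linear scale, was 1184 to 1252 on the arrays with both factors and 442 to 457 with Wnt3a. MiR-200b, from the chromosome 4 cluster, gave 9.07, 9.22 and 9.13 against 7.63, 7.65 and 7.60 (difference 1.52, SE 0.06, adjusted p = 2.93e-08). MiR-141, from the chromosome 6 cluster, gave 5.67, 5.58 and 5.67 against 3.69, 4.11 and 3.86 (difference 1.75, SE 0.22, adjusted p = 9.34e-05), but its call was lost in the fit of all 39 arrays (adjusted p = 0.0816). MiR-429, miR-200a and miR-200c were higher by 1.40, 1.39 and 1.33, so that members of both clusters and both seeds differed by similar amounts, and their groups did not overlap.

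The miR-23/27/24 clusters are expressed in many cell types. Their 5 members detected on all 6 arrays were all called higher, against 10.1% of all miRNAs tested, with a median difference of 1.25. MiR-27a gave 8.52, 8.72 and 8.57 with both factors and 7.03, 7.05 and 6.90 with Wnt3a (difference 1.61, SE 0.06, adjusted p = 2.47e-08). Its neighbour miR-23a was higher by 1.45, miR-24 by 1.25, and the chromosome 13 members miR-23b and miR-27b by 1.16 and 1.12. MiR-24-2*, the strand that only the chromosome 8 cluster makes, was detected on 2 of 3 arrays with both factors and on 0 of 3 with Wnt3a. It was called higher too, but the detection filter fixed its direction, and the call was lost on leaving out most single arrays.

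MiR-222 and its neighbour miR-221 are miRNAs known to target the cell cycle inhibitor p27 and the receptor Kit. MiR-222 was detected at 4.29, 4.62 and 4.66 with both factors and on 0 of 3 Wnt3a arrays, at least 7.92-fold higher (adjusted p = 8.99e-05). MiR-221 gave 6.88, 6.72 and 6.72 against 5.76, 5.78 and 5.80, and its difference of 0.99 (SE 0.07, adjusted p = 2.03e-06) fell just short of 2-fold. MiR-489 was at least 3.95-fold higher (adjusted p = 7.27e-09), detected at 3.71, 3.52 and 3.34 with both factors and on 0 Wnt3a arrays.

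The let-7 family, which accumulates in differentiated cells, and the neighbouring miR-99/100 and miR-125 genes did not move as 1 group. Of 6 let-7 miRNAs tested, 1 was called, higher, against 10.1% of all miRNAs tested. All 6 differences were positive, from 0.44 to 1.56, with a median of 0.81. Without the fold limit, 3 passed an adjusted p under 0.05, against 23.6% higher of all miRNAs tested. Let-7e gave 5.19, 5.03 and 5.05 with both factors and 3.23, 3.37 and 3.99 with Wnt3a (difference 1.56, SE 0.49, adjusted p = 0.0234), a call that was lost in 5 of the 6 fits that left out 1 array. Let-7c differed by 1.17 without passing the test (adjusted p = 0.0586). MiR-125a-5p, beside let-7e on chromosome 17, gave 7.19, 6.93 and 7.05 against 6.03, 6.05 and 6.08 (difference 1.00, SE 0.09, adjusted p = 8.22e-06), right at the 2-fold limit, and its call was lost under scaling to the 75th percentile.

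Several relatives of these miRNAs at other loci were lower. MiR-125b-5p, which has the seed of miR-125a-5p and is abundant in neural tissue, gave 5.37, 5.21 and 5.29 with both factors and 6.95, 7.08 and 7.05 with Wnt3a (difference -1.73, SE 0.06, adjusted p = 1.31e-08). MiR-100 was detected at 4.79, 4.64 and 4.89 with Wnt3a and on 0 of 3 arrays with both factors, at least 7.91-fold lower (adjusted p = 6.35e-09). MiR-99a, which shares the chromosome 16 locus with a miR-125b gene, was at least 2.99-fold lower. The products of a locus did not all differ in 1 direction. On chromosome 17, miR-99b was 0.88 higher (adjusted p = 4.5e-05) and its opposite strand miR-99b* 0.81 lower (adjusted p = 0.0168), both under 2-fold, and miR-125a-3p differed by -0.12 (adjusted p = 0.081). Let-7c, for which a gene lies beside miR-99a, had the difference of 1.17 given above.

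The miR-181 family also had calls in both directions. MiR-181c was detected at 3.40, 3.77 and 3.81 with both factors and on 0 Wnt3a arrays, at least 4.34-fold higher (adjusted p = 0.00183). It was tested only through its detection with both factors, so the detection filter fixed its direction. MiR-181b gave 5.35, 5.39 and 5.33 with Wnt3a but was undetected, 2.54 and 2.21 on the arrays with both factors, so its fitted difference of -3.44 (SE 0.57, adjusted p = 0.000743) depends on the floor. MiR-181a and miR-181d were not called.

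**Figure D3:**
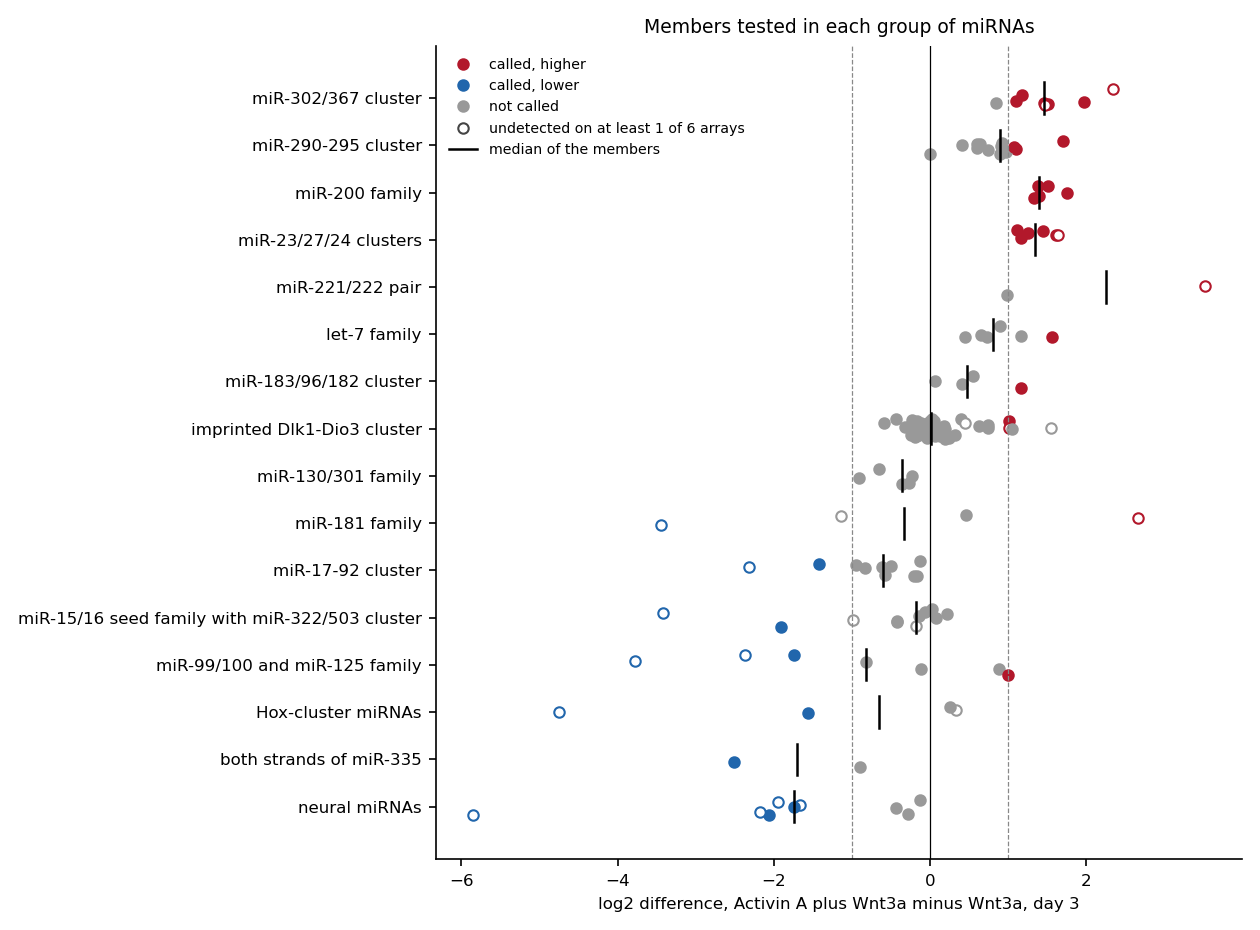
Fitted log2 difference (Activin A plus Wnt3a minus Wnt3a, day 3) of every tested member of 16 groups of miRNAs, with the median of each group as a black bar and 2-fold as dashed lines. All tested members of the miR-200 and miR-23/27/24 groups lie above 2-fold, and the 5 neural miRNAs detected on all 6 arrays lie below 0. The miR-181 and miR-99/100 and miR-125 families have called members on both sides. The detection filter fixed the direction of some members, among them miR-24-2*, miR-181c and the other 4 neural miRNAs tested.

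Of the 15 neural miRNAs listed, 6 were undetected on all 6 arrays and 9 were tested. Of the 5 detected on all 6 arrays, miR-124 and miR-125b-5p were called lower, against 8.49% of all miRNAs tested. MiR-125b-5p was also described above with the members of its own family. The median difference of these 5 was -0.43, against -0.01 over all miRNAs tested. The other 4, miR-219, miR-124*, miR-153 and miR-9*, were called lower too, but they were tested only because they were detected with Wnt3a, so their direction was fixed by the detection filter and their number is no measure of the group. MiR-219, known from oligodendrocytes and neural progenitors, gave 6.66, 6.90 and 7.00 with Wnt3a and was undetected on all 3 arrays with both factors, at least 33.4-fold lower (adjusted p = 8.78e-09). MiR-124, the neuronal miRNA that represses non-neuronal transcripts, gave 5.83, 5.63 and 5.87 with Wnt3a and 3.84, 3.71 and 3.62 with both factors (difference -2.05, SE 0.12, adjusted p = 3.15e-07). Its opposite strand miR-124* was at least 2.61-fold lower and miR-153, of brain, at least 2.22-fold lower.

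MiR-9, however, gave 4.82, 4.82 and 4.99 with both factors and 5.00, 4.99 and 5.00 with Wnt3a, a difference of -0.12 (adjusted p = 0.143). Its opposite strand miR-9* was detected at 3.13, 3.27 and 3.16 with Wnt3a and on 1 of 3 arrays with both factors, at 2.57, and this call (adjusted p = 0.0457) was lost in 5 of 6 fits that left out 1 array. MiR-128 was 0.43 lower (adjusted p = 0.014), miR-129-3p was not called, and miR-137, miR-138 and miR-132 were undetected on all 6 arrays.

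MiR-10a and miR-10b lie in the Hoxb and Hoxd clusters and are known for their axial pattern along the embryo. MiR-10a gave 5.65, 5.74 and 5.85 with Wnt3a and was undetected on all arrays with both factors, at least 15.5-fold lower (adjusted p = 1.31e-08). MiR-10b gave 6.05, 6.03 and 6.17 with Wnt3a and 4.70, 4.35 and 4.51 with both (difference -1.56, SE 0.17, adjusted p = 3.89e-05), a call lost in the fit of all 39 arrays (adjusted p = 0.179). The other Hox-cluster miRNAs, miR-196a and miR-196b, differed by 0.33 and 0.26 and were not called.

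MiR-322 and miR-503, neighbours on the X chromosome that share targets of the cell cycle with the miR-15/16 family, were both lower. MiR-322 gave 5.33, 5.29 and 5.33 with both factors and 7.26, 7.19 and 7.22 with Wnt3a (difference -1.90, SE 0.06, adjusted p = 6.3e-09), but its call was lost in the fit of all 39 arrays (adjusted p = 0.252). MiR-503 was detected at 4.84, 4.29 and 4.11 with Wnt3a and not with both, at least 6.16-fold lower. Of the other 9 tested members of the seed family and its X-linked neighbours, 0 were called in either direction. MiR-335-5p, made from an intron of the imprinted gene Mest, which is active in mesoderm, gave 6.37, 6.30 and 6.43 with both factors and 8.87 on each Wnt3a array (difference -2.51, SE 0.08, adjusted p = 8.77e-09). MiR-335-3p, from the same hairpin, was 0.90 lower (adjusted p = 5.13e-05).

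The proliferation-associated miR-17-92 cluster was lower by smaller steps. Of 10 members tested, 8 were lower at an adjusted p under 0.05 (28% of all miRNAs tested), with a median difference of -0.60, and 2 passed 2-fold (8.49%). MiR-19b gave 11.27, 10.98 and 11.43 with both factors and 12.64 on each Wnt3a array (difference -1.42, SE 0.25, adjusted p = 0.00113), and the call was lost under 3 other scalings. MiR-92a*, the other called member, was detected at 3.30, 3.53 and 3.23 with Wnt3a and on 1 array with both factors. The related miR-106a-363 and miR-106b-25 clusters gave 0 of 8 called, with a median of -0.21.

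The cells were checked for miRNAs of other tissues. Of 15 miRNAs listed for fibroblasts and mesenchyme, which would include carried-over feeders, 7 were undetected on all 6 arrays, among them the mesenchymal miR-143, miR-145, miR-199a-5p and miR-214, and 6 were detected on all 6. MiR-21, which many other cell types also express, gave 10.16, 10.16 and 10.04 with both factors and 10.47, 10.47 and 10.38 with Wnt3a (difference -0.32, adjusted p = 0.0233). MiR-199a-3p, the detected strand, gave 4.72, 4.75 and 4.81 with Wnt3a and 3.30, 2.67 and 3.37 with both factors (difference -1.65, SE 0.49, adjusted p = 0.0183). With miR-199b* and miR-10b it was 1 of 3 called lower of the 8 tested on that list, against 8.49% of all miRNAs tested. At an adjusted p under 0.05 without the fold limit, 4 of the 8 were lower and 2 higher. One of the higher was miR-31*, by 0.87 (adjusted p = 0.034), which was undetected on every Wnt3a array, so the detection filter fixed its direction. The list's summed signal, most of it from miR-21, was 1276 to 1372 with both factors and 1606 to 1690 with Wnt3a. The part of the list in the results was not tested. Of the blood miRNAs, miR-142-3p, miR-144 and miR-451 were undetected, miR-150 was called lower and miR-223 differed by 2.04 without passing (adjusted p = 0.0655). The muscle miRNAs, among them miR-1, miR-133a, miR-133b and miR-206, stood at the floor.

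MiRNAs of the organs that arise from endoderm were mostly undetected in both groups. MiR-122 of liver and miR-192 and miR-194 of gut and liver were detected on 0 of 6 arrays. MiR-375, of pancreas and gut, gave 4.60, 4.11 and 4.43 with both factors and 4.40, 3.71 and 4.37 with Wnt3a, and its groups overlapped. MiR-218, which is encoded in the Slit genes, was 0.92 higher (SE 0.05, adjusted p = 4.33e-07), under 2-fold.

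Several groups had few or no calls. Over all miRNAs tested, 10.1% were called higher and 8.49% lower. The imprinted Dlk1-Dio3 cluster, the largest list, had 2 of 53 tested members called higher (miR-369-3p by 1.01 and miR-539 by 1.02) and 0 called lower. Its median difference was 0.01. Without the fold limit, 6 of its members were higher and 10 lower at an adjusted p under 0.05. The rodent cluster of miR-297, miR-466, miR-467 and miR-669 gave 0 of 21 called. The miR-29 and miR-34 families and that of miR-148 with miR-152 gave 0 called. The family of miR-130 and miR-301 also gave 0, but 3 of 5 were lower at an adjusted p under 0.05 and the median was -0.35, and the miR-30 and miR-26 families gave 1, miR-30a*, lower. In the cluster of miR-183, miR-96 and miR-182, miR-183* was higher by 1.17 and the other 3 members were under 2-fold, with 3 of the 4 higher at an adjusted p under 0.05 and a median of 0.48.

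The study had pooled 6 miRNAs for over-expression, by its account from those it had itself identified, so their direction is not independent evidence. Not all 6 need have been chosen on the arrays of day 3, and let-7e was also known to it from human DE cells. Of the 6, miR-222, miR-181c, miR-338-5p and let-7e were called higher and miR-196a and miR-196b were not. MiR-338-5p was at 3.69, 3.42 and 3.07 with both factors and at 2.02, undetected and 1.66 with Wnt3a (adjusted p = 0.00174).

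The Activin A and Wnt3a arrays of day 3 shared a slide, and their comparison, which uses the same Wnt3a arrays, gives values within that slide. With Activin A in place of both factors, miR-200b was 1.43 higher than with Wnt3a (1.52 with both), miR-302b 1.19 (1.51), miR-27a 1.25 (1.61) and miR-23a 0.97 (1.45). On the lower side the values were -1.85 for miR-124 (-2.05 with both), -2.29 for miR-125b-5p (-1.73), -2.87 for miR-335-5p (-2.51), -1.63 for miR-322 (-1.90) and -2.80 for miR-10b (-1.56). These values compare another treatment and so bear on the slide only in part.

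The effect of Activin A without Wnt3a, that is Activin A against control, uses 6 other arrays, 5 of them on 1 slide. Of 299 miRNAs tested, 62 (20.7%) were called, 41 higher (13.7%) and 21 lower (7.02%). Of the 59 miRNAs called with Wnt3a present, 52 were tested there, of which 23 were also called higher and 16 also called lower. MiR-9* alone was called in opposite directions, and was detected at 4.48, 4.51 and 4.57 with Activin A. All 5 tested miR-200 miRNAs were called higher in this comparison too, with a median of 1.82 against 1.40 with Wnt3a. Over the 242 miRNAs detected on all 12 arrays of day 3, Pearson's r between the effects with and without Wnt3a was 0.80 and Spearman's rho was 0.70, given as a description since the points share the normalization and are not independent.

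The test of whether the Activin A effect differed with Wnt3a called 13 of 319 miRNAs (4.08%), 4 higher (1.25%) and 9 lower (2.82%). The miR-302 and miR-367 cluster had 2 of the 4. For miR-302b the Activin A effect was 1.51 with Wnt3a and 0.42 without (difference 1.08, adjusted p = 0.000143), as the arrays gave 10.74, 10.81 and 10.74 with Activin A and 10.27, 10.27 and 10.47 in control. For miR-302a* it was 1.98 with Wnt3a and 0.69 without (difference 1.29, SE 0.13, adjusted p = 9.69e-06). In control cells both miRNAs were above their level with Wnt3a, and the cells with both factors had the highest level of the 4 groups.

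MiR-10a showed the widest gap among miRNAs detected on all arrays of the other 3 groups. It gave 3.88, 4.41 and 4.72 in control, 5.65, 5.74 and 5.85 with Wnt3a, 3.32, 3.16 and 3.10 with Activin A, and was undetected with both, a difference of effects of -3.60 (SE 0.25, adjusted p = 1.13e-05) that depends on the floor. For miR-10b, which differs from miR-10a at 1 position, the effects were -1.56 with Wnt3a and -1.01 without, and the difference did not pass (adjusted p = 0.12). MiR-489 was detected at 4.53, 4.66 and 4.62 with Activin A, above its level with both factors, and was undetected in control and with Wnt3a. No member of the miR-200 family or of the miR-23/27/24 clusters was among the 13. Below 2-fold, however, the Activin A effect was smaller with Wnt3a than without for miR-429 (difference of effects -0.42, adjusted p = 0.00768), miR-200c (-0.36, adjusted p = 0.00701) and miR-200a (-0.46, adjusted p = 0.0233).

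**Figure D4:**
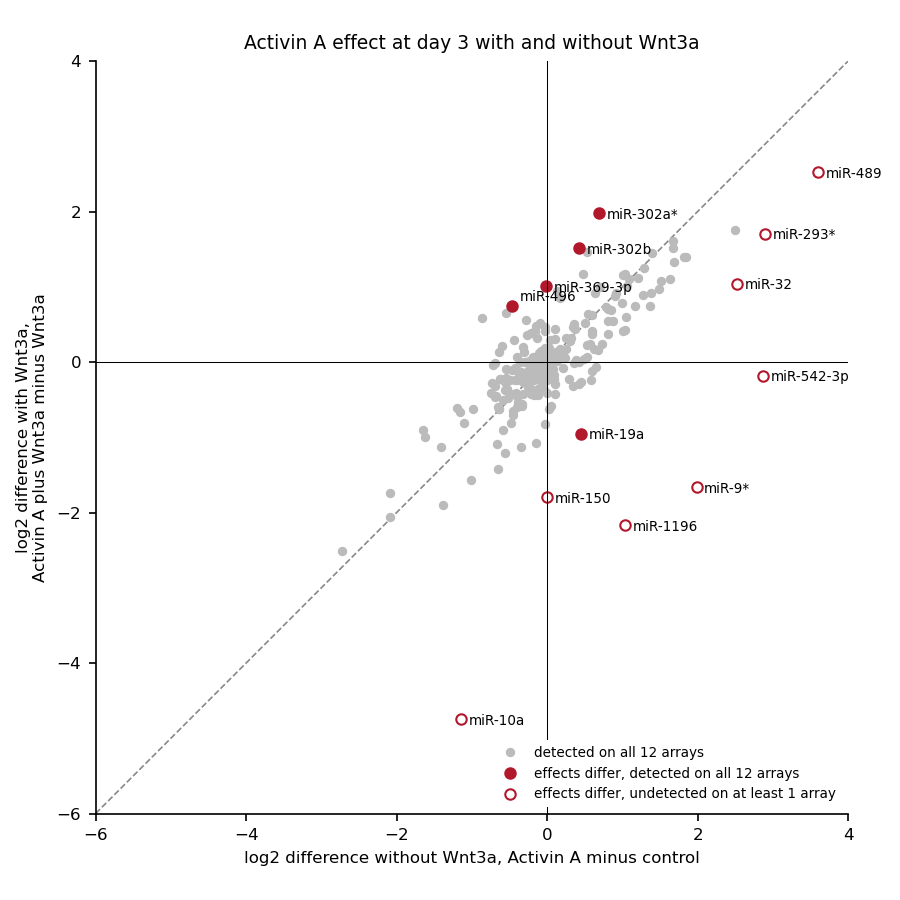
Effect of Activin A at day 3 without Wnt3a (x axis, Activin A minus control, log2) and with Wnt3a (y axis, Activin A plus Wnt3a minus Wnt3a, log2), for miRNAs detected on all 12 arrays (grey) and the 13 whose effects differed (red, open where undetected on at least 1 array). The dashed line marks equal effects, miR-302b and miR-302a* lie above it, and miR-10a and miR-9* lie far below it.

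The same comparison, Activin A plus Wnt3a against Wnt3a, was made within 1 slide at day 1 and at day 5. At day 1 it called 1 of 230 miRNAs (0.435%), miR-367, which was 1.18 lower (adjusted p = 0.00517). Without the fold limit 6 (2.61%) were higher and 5 (2.17%) lower at that day. MiR-302a, miR-302b and miR-302d were among the lower, at -0.65, -0.83 and -0.60, so that the cluster differed in the opposite direction to that of day 3. Among the higher, miR-23a and miR-125a-5p were 0.57 and 0.40 higher (adjusted p = 0.00517 and 0.00393), and the miR-200 family had a median of 0.25 with 0 of 5 called.

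At day 5 the comparison called 89 of 350 miRNAs (25.4%), and 91 of 346 (26.3%) without Wnt3a replicate 1, an array that stood apart from the other 2 of its group. Of the 59 miRNAs called at day 3, 56 were tested at day 5, where 23 were again higher and 15 again lower and 0 were called in the opposite direction. Without that array the numbers were 26 and 18. The miR-302 and miR-367 cluster was called higher for 6 of 6 tested members with a median of 2.55, and the miR-200 family for 5 of 5 with 2.86. MiR-302b was 3.38 higher at day 5 and 2.10 without that array, so its size at day 5 rests in part on it.

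Not every miRNA called at day 3 was called at day 5. MiR-10b differed by 0.05 at day 5 (adjusted p = 0.92), and by -0.34 without the array that stood apart (adjusted p = 0.121). MiR-222 differed by 0.39 (adjusted p = 0.528) and was not called, but without that array it was 1.03 higher and called (adjusted p = 0.0014). In contrast, miR-375 and miR-196b, which were not called at day 3, were 3.86 and 4.71 higher at day 5. Whether the differences of day 3 and day 5 differ from each other was not tested.

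**Figure D5:**
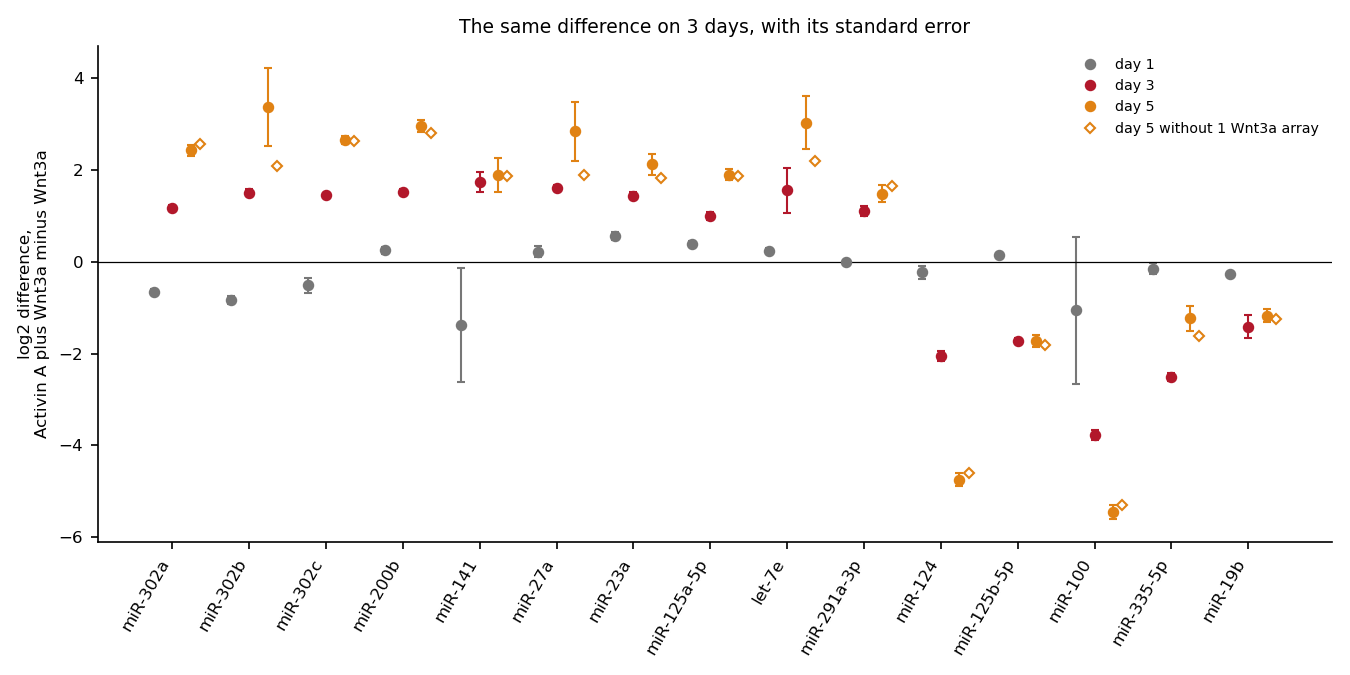
Log2 difference (Activin A plus Wnt3a minus Wnt3a) of 15 miRNAs at day 1 (grey), day 3 (red) and day 5 (orange), with its standard error, and at day 5 without Wnt3a replicate 1 (open diamonds). The miR-302 miRNAs lie below 0 at day 1 and above 1 at days 3 and 5, and miR-124 lies near 0 at day 1 and at -4.75 at day 5.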

How the data were processed

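MiRNA levels came from Agilent 1-colour (Cy3) arrays. The authors deposited scanner output holding background-subtracted total intensity per miRNA and a detection flag (Feature Extraction 10.7.3.1 per the file headers, 9.5.3.1 per the submitters' processing notes). Of the log2 matrix the authors deposited, only the rank order was used. Here the 39 arrays were quantile normalized together, raised to a floor of 2 (4 of 1820 detected values of the 6 arrays lay under it) and put on the log2 scale. MiRNAs detected on at least 2 of 3 arrays of a compared group were tested in a fit of the 12 arrays of day 3 (limma 3.58.1, R 4.3.3) with Benjamini-Hochberg adjustment, and a call needed more than 2-fold and an adjusted p under 0.05. The study's methods give these thresholds for an analysis of variance, which was an alternative, as were other scalings, background correction, floors, filters, slide and replicate blocks (statmod 1.5.0) and each array left out in turn. No label gives separate cultures, so p-values measure the spread between these samples, which may be technical. MiRNAs were chosen for naming by a rule, and not all of them are described above. The rule took the 12 largest increases and 12 largest decreases among called miRNAs detected on all 6 arrays without overlap. It also took the 5 largest lower bounds in each direction, up to 4 members of each list and the 6 pooled miRNAs. Those not described include miR-574-5p, miR-135a, miR-1187, miR-340-5p and miR-1224, with differences of -1.21, -1.13, -1.09, -1.08 and -1.00. MiR-302d, miR-9, miR-99b, miR-128, miR-129-3p and miR-294 were picked with their values known, as were those named by the test of the difference of effects. Further miRNAs, among them miR-21, miR-23b, miR-27b, miR-99b* and miR-125a-3p, were also named outside the rule. The comparison, its miRNA lists and tests were chosen with earlier results of these data known. The fit was tested on simulated data. The precision is limited by the number of arrays.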

Additional observations from a re-analysis of the deposited data

Results flagged for a closer look

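For 13 miRNAs the effect of Activin A at day 3 differed between cells with and without Wnt3a by limma's test of that difference. The values below are the effect with Wnt3a minus the effect without, on the log2 scale. They were positive for miR-302a* (1.29), miR-496 (1.21), miR-302b (1.08) and miR-369-3p (1.03), which were detected on all 12 arrays of day 3. They were negative for miR-9* (-3.65), miR-10a (-3.60), miR-1196 (-3.20), miR-542-3p (-3.05), miR-150 (-1.80), miR-32 (-1.49), miR-19a (-1.40), miR-293* (-1.20) and miR-489 (-1.08). Of these 9, miR-19a was detected on all 12 arrays. MiR-489 was undetected in control and with Wnt3a, so the floor cancels and its value is the level with both factors minus that with Activin A. The sizes of the others depend on the floor. MiR-19a, of the miR-17-92 cluster, was 0.95 lower when Activin A was added to Wnt3a (adjusted p = 0.00403) and differed by 0.45 when it was added to control medium (adjusted p = 0.0901). MiR-542-3p was undetected in control, was detected on all 3 Activin A arrays and differed by -0.18 between both factors and Wnt3a. Among the arrays of day 3 those with both factors were alone on their slide, and slide and treatment cannot be told apart for any of the 13.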

How the results depend on the processing

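The 32 miRNAs higher became 22 to 36 in 13 of 14 alternative settings and 27 to 33 when each array was left out, the 27 lower became 22 to 28 in 11 of 14 and 23 to 28, and the 13 with differing effects became 10 to 18 in 10 of 12 and 10 to 19. Normexp background correction, whose offset of 50 shrinks differences of low signals by construction, left 4, 2 and 1. It lost 53 of the 59 calls, 28 of them for miRNAs detected on all 6 arrays. All calls of the miR-200 family and the miR-23/27/24 clusters were lost, as was that of miR-124. The losses were not confined to low signals, as miR-200b and miR-367 had means of 9.14 and 10.71 with both factors. Requiring detection on all arrays, which tests 271 and 242 miRNAs, gave 12 lower, all among the 27, and 6 with differing effects, of which 5 were among the 13, a floor of 8 left 17 lower, and without the fold limit the counts were 75, 89 and 73. With the replicate number as a block 33 were higher, 28 lower and 12 differed in effect. Same-numbered arrays deviated together with correlations of -0.29, -0.026 and 0.0070. Deviations from group means of so few arrays are tied to each other, so these values cannot show whether same-numbered arrays share a culture. Slide as a term could not be fitted, since no group has arrays that link the slides compared, and that alternative was not run. As a random block its correlation was -0.052 and -0.050, which is no test of slide, and with it 14 differed in effect, of which 8 were among the 13. The calls of miR-302a, miR-302b, miR-302c and miR-335-5p held in every setting and omission. Some small differences changed sign: miR-106b* (0.0038) and miR-375 (-0.0023) with normexp, and miR-29a (-0.066) and miR-183 (-0.018) with scaling to the 75th percentile of detected miRNAs. When each array was left out, miR-375 ranged from -0.0046 to 0.36, miR-29a from -0.050 to 0.15 and miR-183 from -0.016 to 0.11, the lowest being without Wnt3a replicate 2 for miR-375 and without Activin A plus Wnt3a replicate 1 for the others. The effect difference of miR-293* became 0.29 with quantile normalization of log2 signals and 0.18 with a floor of 8, since control arrays lay at the floor. Other scalings moved the median of all miRNAs by at most 0.08. Let-7e, miR-9*, miR-24-2*, miR-328, miR-199b*, miR-1196, miR-32 and miR-539 lost their calls in at least 3 omissions. Of the 13 called miRNAs detected on 1 or 2 arrays of either group, 6 kept their calls in every omission that tested them. Other causes were not tested.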
